A study of Mus musculus with 8 samples.

Results

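Molecules with a CD number are leukocyte surface antigens named by the antibodies that recognise them, and their transcripts give a surface profile of a sorted cell. The genes described here are those whose symbol is Cd followed by a number and at most a letter, without Cd2, Cd3d, Cd3e, Cd3g, Cd8a, Cd28, Cd69 and Cd74. Of the 40 symbols of that form, 32 remained, out of 10913 genes in the deposited UMI count table, and 27 of the 32 passed the filter on low counts. The labels name the cells as ILC2 (innate lymphoid cells of group 2), sorted from the dissociated thymus of young, untreated male mice. ILC2 reside in tissues and secrete type 2 cytokines. The Il25 KO group was labelled as knocked out for Il25, the gene of a cytokine that tuft cells release and that activates ILC2, and the WT group came from age-matched wild-type mice, with 4 libraries in each group. The labels give neither the strain, the KO allele, the age in weeks nor the antibodies of the sort, and they do not say that each library came from a separate mouse, so p-values speak only of the spread among these 8 samples, which may be technical. Il25 itself was not analysed here, so the genotype was not checked on its own transcript.

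CD molecules fall into families with known roles. Tetraspanins organise receptors and integrins into membrane patches, SLAM family receptors and their ligands mediate contact between blood cells, and sialomucins and the hyaluronan receptor CD44 act in adhesion. CD4, CD5, CD6, CD7 and the zeta chain encoded by Cd247 act at or beside the T cell receptor, and the zeta chain also serves receptors of natural killer cells. Not every encoded protein stays at the surface, since CD63 and CD68 reside mostly in late endosomes and lysosomes. The values are transcript levels, and surface protein was not measured.

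The libraries held 1915365 to 2932999 UMIs in KO and 2398817 to 3250718 UMIs in WT. Of 18 marker genes of ILC2, 11 were analysed, with summed levels of 617 to 661 CPM (UMI counts scaled to a common library size) in KO against 494 to 617 CPM in WT, lowest in WT replicate 1. Il17rb and Il2ra led that list, while Icos, Il13, Il4 and Cxcr6 lay between 0 and 9.21 CPM, and Rora, Il1rl1, Klrg1, Il5, Arg1, Ptgdr2 and Hpgds were not analysed here. Of 17 marker genes of thymocytes and T cells, 14 were analysed, with sums of 4218 to 4688 CPM in KO against 3879 to 5189 CPM in WT, led by Dntt and Lck. These sums exceeded those of the ILC2 list in every library, on lists of unlike length. Dntt and Lck averaged 2129 and 761 CPM over the 8 libraries, and Il17rb and Il2ra 166 and 143 CPM. Whether the profile described below is that of ILC2 alone was not tested. The sum of the thymocyte and T cell list hides genes whose groups lay apart in opposite directions, named here after their values were seen. Over all tested genes, 2.92% lay apart with KO higher and 2.31% with KO lower. Dntt had 2179 to 2552 CPM in KO against 1835 to 2118 CPM in WT. Cd3d had 120.5 to 189 CPM in KO against 217 to 318 CPM in WT, Ptcra 26.5 to 33.3 CPM against 39.7 to 61.1 CPM, and Cd8b1 33.7 to 48.1 CPM against 55.7 to 357 CPM. None of these 4 passed the test, with adjusted p in edgeR of 0.41, 0.0521, 0.0917 and 0.185 in that order, and their part in the levels of the CD-numbered genes was not tested. Other lists held such genes too. Il17rb and Areg of the ILC2 list lay wholly higher in KO, at adjusted p in edgeR of 0.46 and 0.218. Ahr and Nrp1, from a list of ILC3 (innate lymphoid cells of group 3) markers, lay wholly lower, at 0.324 and 0.153. In bulk samples fewer cells of a type and less RNA per cell cannot be told apart. WT replicate 1 stood apart from the other WT libraries in the summed markers of macrophages and monocytes (5 of 10 genes), with 153 CPM against 29.6 to 41.6 CPM, where the KO libraries held 44.0 to 64.0 CPM. It was also the highest WT library in the thymocyte and T cell list, with 5189 CPM against 3879 to 4220 CPM in the other 3, and Cd8b1 stood at 357 CPM there against 55.7 to 65.2 CPM. Values that moved with this library are given with and without it.

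The surface profile was led by Cd24a, a GPI-anchored glycoprotein of immature lymphocytes, at a mean of 803 CPM over the 8 libraries, with 167 of the 10913 genes above it. Cd47, the ligand through which cells inhibit uptake by phagocytes, followed at 511 CPM, then Cd27, a TNF receptor family member bound by CD70, at 260.2 CPM and Cd247 at 213.5 CPM. Levels were compared between genes without a length correction, because each transcript is counted at its 3′ end. Other differences in counting between genes were not corrected. Among the leading genes, exons of Cd27, Cd247 and Cd37 overlap another gene, and the treatment of shared reads is not stated, so their levels are uncertain. The means of 9 members lay above 100 CPM, those of 14 between 10 and 100 CPM and those of 9 below 10 CPM. Cd24a and Cd47 together held 42.2% to 48% of the summed level of the 32 members in each library, and the top 10 held 81.5% to 88.1%. The order was fixed at the top and loose below it. Cd24a was the highest and Cd47 the next in all 8 libraries, and Cd27 and Cd247 took the following places in 7 of 8 and exchanged them in WT replicate 1.

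**Figure D1:**
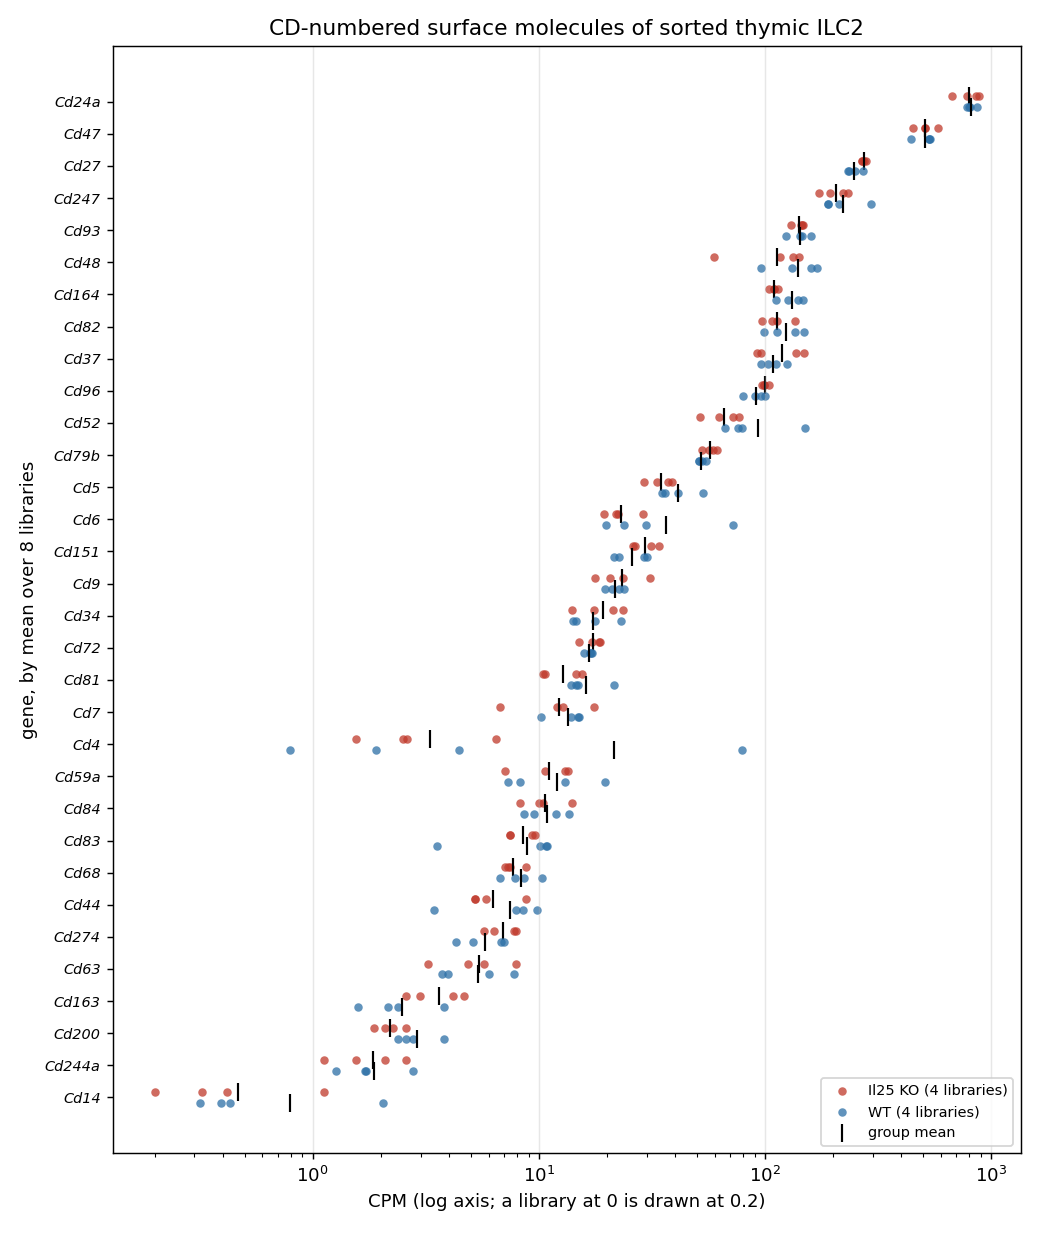
CPM on a log axis of the 32 CD-numbered genes in each Il25 KO library (red, upper row of each gene) and WT library (blue, lower row), with a bar at each group mean. The levels run from 803 CPM for Cd24a to 0.631 CPM for Cd14, and the Cd4 value of WT replicate 1 lies at 78.7 CPM, far right of the other 7 libraries.

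Of the 31 pairs of neighbours in the order by mean level, 3 had ranges over the 8 libraries that did not overlap: Cd24a above Cd47, Cd47 above Cd27, and Cd247 above Cd93. From Cd48 down to Cd37 the means were 125.9, 120.4, 118.8 and 113.7 CPM. Their SDs were 35.4, 15.5, 19.1 and 21.2 CPM (n = 8 libraries, KO and WT together). The ranges of these neighbours overlapped. Compared within each library, Cd48 exceeded Cd164 in 6 of the 8, Cd164 exceeded Cd82 in 3 and Cd82 exceeded Cd37 in 5. The same 10 genes led in the KO libraries alone as over all libraries, and in the WT libraries alone Cd52 took the place of Cd96.

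Among the genes that lead the profile, Cd24a lies on chromosome 10 from 43578284 to 43584265, Cd47 on chromosome 16 from 49800533 to 49915010, Cd27 on chromosome 6 from 125232622 to 125237010 and Cd247 on chromosome 1 from 165788681 to 165877277 (GENCODE M21, GRCm38, the assembly of mm10). The RefSeq start of Cd47 lies inside its GENCODE span, downstream of the GENCODE start. Cd5 and Cd6, described below for a library in which both were high, are neighbours on chromosome 19, 50.3 kb apart on the same strand. The 250 bases before the transcript start (RefSeq, GRCm38.p6) are printed for 3 of the leading genes and for Cd5. In WT replicate 1 Cd5 was highest, at 1.41 times the mean of the other WT libraries. The choice was limited by what was at hand, since no promoter sequence was available for Cd24a, Cd4, Cd6 and Cd52. Capitals mark matches on either strand to GATA motifs (spelled AGATAA, also spelled AGATAG, also spelled TGATAA, also spelled TGATAG), to ETS motifs (spelled CCGGAA, also spelled CAGGAA) and to a RUNX motif (spelled TGTGGT).
Cd47, chr16:49855404-49855653, plus strand: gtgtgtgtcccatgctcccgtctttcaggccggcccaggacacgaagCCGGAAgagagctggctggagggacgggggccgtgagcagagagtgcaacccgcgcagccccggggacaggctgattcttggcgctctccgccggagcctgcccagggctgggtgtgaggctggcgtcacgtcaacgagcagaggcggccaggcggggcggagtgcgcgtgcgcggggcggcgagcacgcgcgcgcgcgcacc
Cd27, chr6:125237028-125237277, minus strand: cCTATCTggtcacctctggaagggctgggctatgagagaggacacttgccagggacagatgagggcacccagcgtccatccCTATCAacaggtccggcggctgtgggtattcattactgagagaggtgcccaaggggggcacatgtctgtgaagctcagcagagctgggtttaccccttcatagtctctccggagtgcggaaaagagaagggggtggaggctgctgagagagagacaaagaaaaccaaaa
Cd247, chr1:165788431-165788680, plus strand: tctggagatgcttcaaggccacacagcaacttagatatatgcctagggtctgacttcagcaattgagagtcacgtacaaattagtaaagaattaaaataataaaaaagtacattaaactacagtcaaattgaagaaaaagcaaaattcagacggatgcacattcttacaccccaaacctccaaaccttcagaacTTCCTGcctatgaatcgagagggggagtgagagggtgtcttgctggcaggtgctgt
Cd5, chr19:10738975-10739224, minus strand: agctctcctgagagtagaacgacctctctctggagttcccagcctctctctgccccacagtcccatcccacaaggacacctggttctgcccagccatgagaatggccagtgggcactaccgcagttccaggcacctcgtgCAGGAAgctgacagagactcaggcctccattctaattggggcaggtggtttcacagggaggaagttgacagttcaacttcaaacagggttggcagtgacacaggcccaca
In these windows Cd27 held GATA letters at 2 places, and Cd47, Cd247 and Cd5 held ETS letters at 1 place each, with no overlap between the marked matches. Of 23 members with a promoter in the table, 6 held a GATA match, 12 an ETS match and 4 a RUNX match, beside 27.1%, 34.9% and 14.2% of 27025 promoters of the same length. A match is a description of the letters and not of binding.

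Adhesion molecules and mucins held the largest share of the profile, with summed means of 1585 CPM in KO and 1618 CPM in WT over 6 genes, of which 0 passed in KO against WT. Cd24a had 885, 855, 667 and 781 CPM in the KO libraries, against 779, 862, 803 and 796 CPM in the WT libraries. The lowest and the highest value both came from the KO group, and the groups overlapped (log2 fold change -0.02 ± 0.11 (SE; adjusted p in edgeR 0.966), 95% interval -0.26 to 0.21). Cd47 had 508, 507, 449.6 and 582 CPM in the KO libraries, against 530.4, 533, 443 and 534 CPM in the WT libraries, with KO replicate 3 and WT replicate 3 low in each group. Its log2 fold change was 0.00 ± 0.11 (SE; adjusted p in edgeR 0.997), with an interval of -0.23 to 0.24. Cd93, a lectin-like receptor of early B cells and endothelium, had 145, 148, 129.8 and 144 CPM in the KO libraries, against 123, 142, 145 and 159 CPM in the WT libraries. The WT values spanned the KO values, and the log2 fold change was -0.01 ± 0.10 (SE; adjusted p in edgeR 0.979).

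Cd164, a sialomucin also known as endolyn, had 109.7, 114, 109.7 and 105 CPM in the KO libraries, against 112, 139.5, 147 and 126 CPM in the WT libraries. WT replicates 2, 3 and 4 lay above all KO libraries and WT replicate 1 lay among the KO values. Its log2 fold change came to -0.26 ± 0.11 (SE; adjusted p in edgeR 0.387), at an unadjusted p of 0.0246 and a 95% interval of -0.48 to -0.04. Cd44, the hyaluronan receptor and a marker of activated and memory lymphocytes, was low, with 5.24, 5.2, 5.83 and 8.79 CPM in the KO libraries, against 3.44, 7.9, 8.49 and 9.85 CPM in the WT libraries. WT replicate 1 was the lowest of the 8 with 8 UMIs, and the groups overlapped (log2 fold change -0.28 ± 0.30 (SE; adjusted p in edgeR 0.779), and -0.49 ± 0.27 (SE) without that library). Cd34, a sialomucin of blood progenitors and endothelium, ranged over 14.0 to 23.6 CPM across KO libraries and 14.2 to 23.1 CPM across WT libraries.

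**Figure D2:**
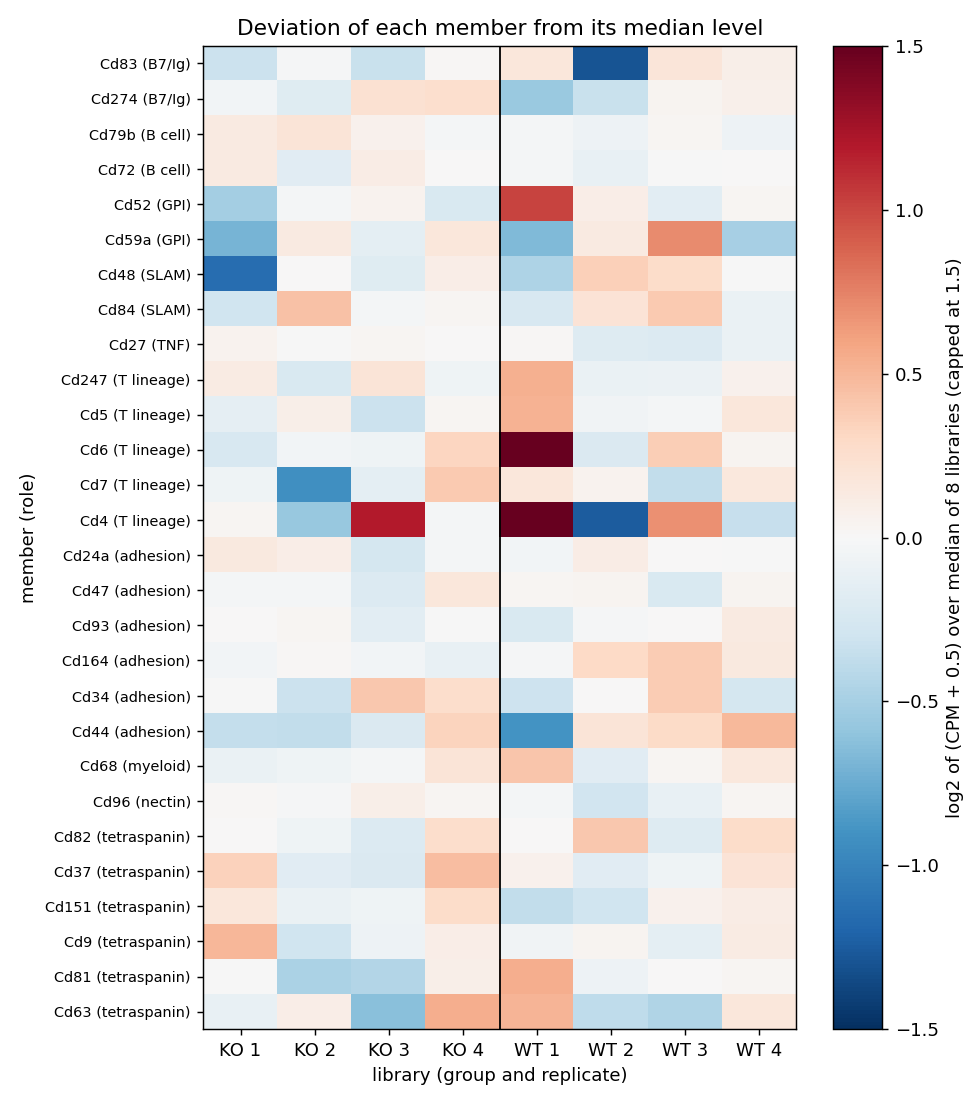
Colour gives the log2 ratio of each gene's CPM, with 0.5 CPM added, to its median over the 8 libraries, in the 4 Il25 KO columns left of the 4 WT columns, for the 27 tested genes and Cd4, grouped by role (colour capped at 1.5). Cd4 and Cd6 are darkest in WT replicate 1, where Cd52, Cd247, Cd5 and Cd81 are also high, and no gene separates the KO from the WT columns.

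The 6 tetraspanins had summed means of 302.8 CPM in KO and 302.2 CPM in WT, and 0 passed the test. Cd82, which regulates integrin and receptor trafficking, had 113, 108, 97.4 and 136 CPM in the KO libraries, against 113, 149, 98.8 and 136 CPM in the WT libraries. Cd37, a tetraspanin of mature lymphocytes, had 137, 95.6, 92.2 and 149 CPM in the KO libraries, against 112, 95.6, 103 and 124 CPM in the WT libraries. Cd82 was highest in WT replicate 2 and Cd37 in KO replicate 4, and the groups overlapped in each. The log2 fold changes were -0.13 ± 0.13 (SE; adjusted p in edgeR 0.755) for Cd82 and 0.12 ± 0.14 (SE; adjusted p in edgeR 0.795) for Cd37. Cd151, a partner of laminin-binding integrins, had 31.4, 26.0, 26.5 and 33.9 CPM in the KO libraries, against 21.5, 22.5, 29.2 and 30.2 CPM in the WT libraries, and its log2 fold change was 0.18 ± 0.16 (SE; adjusted p in edgeR 0.73). Cd81, a tetraspanin of lymphocytes that associates with integrins, had 14.6, 10.4, 10.7 and 15.5 CPM in the KO libraries, against 21.5, 13.8, 14.6 and 14.9 CPM in the WT libraries. Its highest value was that of WT replicate 1, and the log2 fold change of -0.33 ± 0.21 (SE; adjusted p in edgeR 0.59) became -0.18 ± 0.21 (SE) without that library. Cd9, a tetraspanin of membrane fusion and adhesion, ranged over 17.7 to 31.1 CPM across KO libraries and 19.7 to 23.8 CPM across WT libraries. Cd63, the endosomal tetraspanin, had 4.87, 5.72, 3.24 and 7.95 CPM in the KO libraries, against 7.74, 3.95, 3.74 and 6.03 CPM in the WT libraries, on 10 to 19 UMIs a library, and its log2 fold change was -0.00 ± 0.30 (SE; adjusted p in edgeR 1.0), and 0.20 ± 0.35 (SE) without WT replicate 1.

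Among the SLAM family genes, which lie near each other on chromosome 1, Cd48 was by far the highest. Cd48, a GPI-anchored ligand of CD2 and CD244, had 59.5, 133, 117 and 142 CPM in the KO libraries, against 95.9, 169.5, 159.7 and 132 CPM in the WT libraries. KO replicate 1 was the lowest of all 8 and WT replicate 1 the lowest of its group, and the groups overlapped. Its log2 fold change was -0.31 ± 0.20 (SE; adjusted p in edgeR 0.594), with an interval of -0.74 to 0.11. Without KO replicate 1 it was -0.10, and without WT replicate 1 it was -0.45 ± 0.19 (SE). Cd84, a receptor that binds itself on neighbouring cells, ranged over 8.23 to 14.0 CPM across KO libraries and 8.6 to 13.6 CPM across WT libraries. Cd244a, the receptor for CD48, was below the count filter with 39 UMIs in all, 3 to 8 a library in KO and 4 to 7 in WT. Cd48 lies 72.3 kb from Cd244a and 134.4 kb from Cd84. Cd96, a nectin-family receptor that binds CD155, had 98.4, 96.7, 104 and 99.2 CPM in the KO libraries, against 95.5, 79.8, 90.4 and 99.7 CPM in the WT libraries, among the most even of the members, with a log2 fold change of 0.12 ± 0.10 (SE; adjusted p in edgeR 0.707).

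WT replicate 1 was the highest of the 8 libraries in 4 of the 5 genes of the T lineage, where it was so in 15.2% of all tested genes. Cd4, the coreceptor of helper T cells, had 2.62, 1.56, 6.47 and 2.51 CPM in the KO libraries, against 78.7, 0.79, 4.42 and 1.91 CPM in the WT libraries. The WT replicate 1 value rested on 183 UMIs, where the other WT libraries held 2, 13 and 6 and the KO libraries 7, 3, 20 and 6. Outside that library the KO and WT values overlapped, with 1.56 to 6.47 CPM in KO against 0.79 to 4.42 CPM in WT. Cd4 did not pass the count filter and was not tested. Without a filter on low counts its log2 fold change was -2.50 ± 0.94 (SE; adjusted p in edgeR 0.346).

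Cd6, a scavenger-type receptor that binds ALCAM, had 19.5, 22.3, 22.01 and 28.9 CPM in the KO libraries, against 72.3, 19.8, 29.9 and 23.8 CPM in the WT libraries. WT replicate 1 lay far above the other 7 libraries, which overlapped. The log2 fold change was -0.63 ± 0.30 (SE; adjusted p in edgeR 0.459), the largest in size of the tested members, and -0.09 ± 0.18 (SE) without WT replicate 1. Cd5, which dampens signalling of the T cell receptor, had 33.3, 39.0, 29.1 and 37.2 CPM in the KO libraries, against 52.9, 35.2, 36.0 and 41.3 CPM in the WT libraries, again with WT replicate 1 highest. Its log2 fold change of -0.26 ± 0.15 (SE; adjusted p in edgeR 0.562) became -0.13 ± 0.15 (SE) without that library. Cd247 had 221, 173, 232 and 195 CPM in the KO libraries, against 295, 189.7, 191 and 212 CPM in the WT libraries. Its log2 fold change was -0.11 ± 0.14 (SE; adjusted p in edgeR 0.82), and it turned to 0.06 ± 0.12 (SE) without WT replicate 1. Cd7, an immunoglobulin-type receptor of early T and natural killer cells, was the exception, with 6.75 to 17.6 CPM across KO libraries and 10.2 to 15.1 CPM across WT libraries and its highest value in KO replicate 4. Beside these genes, the summed thymocyte and T cell markers and the macrophage markers were also highest in WT replicate 1. Of the macrophage markers, Apoe stood there at 94.2 CPM, against 13.4 to 25.7 CPM in the other WT libraries and 15.5 to 29.3 CPM in KO. Lyz2, at 29.2 CPM, lay above the other WT libraries but inside the KO range of 22.6 to 32.7 CPM. C1qa, C1qb and C1qc, which encode parts of complement C1q made by macrophages, did not pass the count filter. In WT replicate 1 they stood at 9.03, 12.04 and 8.60 CPM. In the other WT libraries C1qb and C1qc stood at 0 CPM and C1qa at 0.395, 0.34 and 0 CPM. KO replicate 1 held 1.123 CPM of each, and the other KO libraries 0 CPM. The part of such transcripts in the levels of Cd4, Cd6, Cd5 and Cd247 was not tested.

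**Figure D3:**
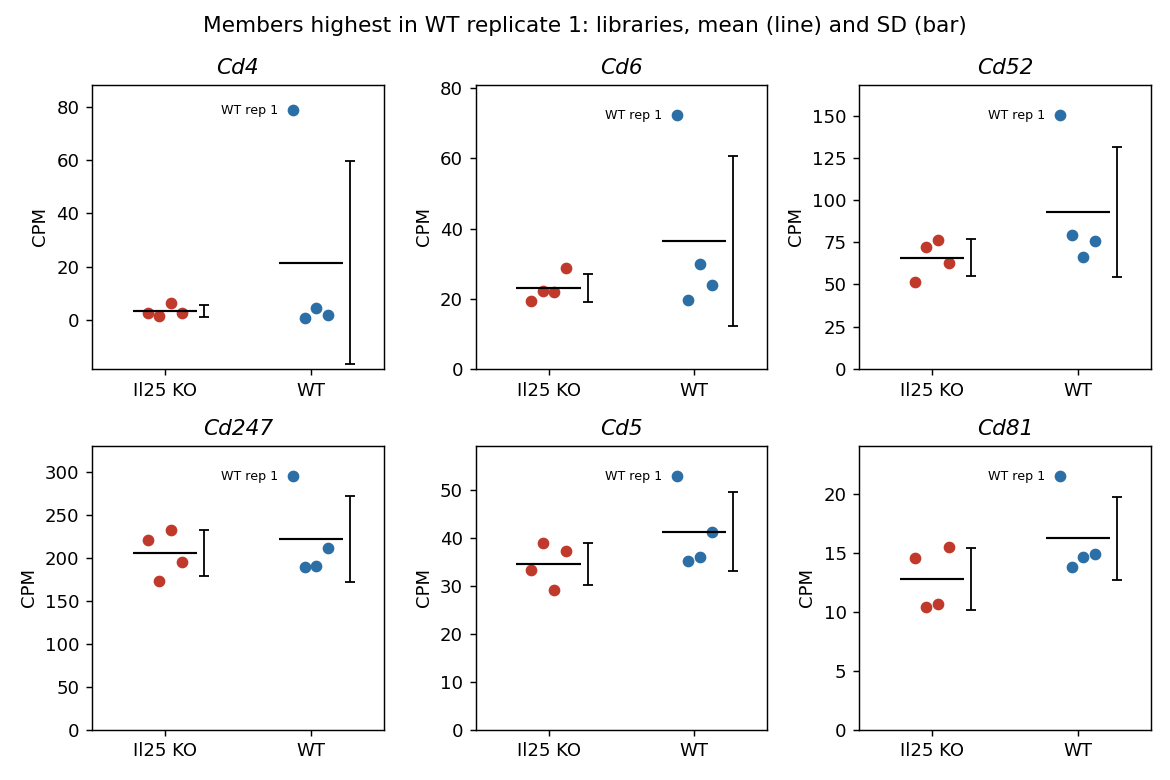
CPM of 6 genes in each Il25 KO library (red, left) and WT library (blue, right), with the group mean as a line and the SD as a bar (n = 4). The seventh gene highest in WT replicate 1, Cd68, is not drawn. In each panel WT replicate 1 is the highest of the 8 libraries, from 78.7 CPM against at most 6.47 CPM for Cd4 to 21.5 CPM against at most 15.5 CPM for Cd81.

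Of the small GPI-anchored molecules, Cd52, a short and heavily glycosylated peptide of lymphocytes, had 51.6, 72.2, 76.4 and 62.8 CPM in the KO libraries, against 150.1, 79.0, 66.2 and 75.6 CPM in the WT libraries. WT replicate 1 was at 2.04 times the mean of the other WT libraries, which overlapped with KO. The log2 fold change was -0.48 ± 0.20 (SE; adjusted p in edgeR 0.394), at an unadjusted p of 0.026, and -0.16 ± 0.14 (SE) without that library. Cd59a, which blocks the membrane attack complex of complement, had 7.11, 13.0, 10.7 and 13.4 CPM in the KO libraries, against 7.31, 13.0, 19.7 and 8.26 CPM in the WT libraries. Its values overlapped, with a log2 fold change of -0.16 ± 0.29 (SE; adjusted p in edgeR 0.89), and -0.32 ± 0.28 (SE) without WT replicate 1. Reads shared with its close copy Cd59b are uncertain.

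Costimulatory and regulatory molecules were led by Cd27, which had 279, 268, 274 and 269 CPM in the KO libraries, against 272, 236, 234 and 250.3 CPM in the WT libraries. The KO values lay within a narrow band and WT replicate 1 lay inside it, above the other WT libraries. The log2 fold change was 0.14 ± 0.10 (SE; adjusted p in edgeR 0.654), with an interval of -0.07 to 0.35, and 0.18 ± 0.11 (SE) without that library. Cd274, which encodes the ligand of the inhibitory receptor PD-1, ranged over 5.72 to 7.95 CPM across KO libraries and 4.3 to 6.99 CPM across WT libraries, and Cd83, a molecule of activated lymphocytes and dendritic cells, over 7.44 to 9.63 CPM across KO libraries and 3.56 to 10.9 CPM across WT libraries. Cd200, a ligand that restrains myeloid cells, was below the filter, with 5 to 7 UMIs a library in KO and 6 to 12 in WT.

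Genes named for B cells and myeloid cells were present at uneven levels. Cd79b, a signalling chain of the B cell receptor, had 59.1, 61.3, 56.3 and 52.7 CPM in the KO libraries, against 52.5, 51.0, 54.7 and 50.8 CPM in the WT libraries, a spread of 7% over the 8 libraries. All its KO values but that of replicate 4 lay above the WT values, and the log2 fold change was 0.13 ± 0.11 (SE; adjusted p in edgeR 0.707). Of 10 other B cell markers only Blk was analysed, with 12.5 to 17.2 CPM in KO against 15.3 to 22.2 CPM in WT, and the part of B cells in Cd79b was not tested. Cd72, an inhibitory lectin of B cells, ranged over 15.1 to 18.7 CPM across KO libraries and 15.8 to 17.1 CPM across WT libraries. Cd68, a lysosomal glycoprotein of macrophages, ranged over 7.11 to 8.79 CPM across KO libraries and 6.72 to 10.3 CPM across WT libraries, highest in WT replicate 1. Cd163, a haemoglobin scavenger receptor, and Cd14, a coreceptor for lipopolysaccharide, were below the filter, with 63 and 14 UMIs in all.

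The members differed widely in how even they were between libraries. The coefficient of variation over the 8 libraries, which includes any group difference, was lowest for Cd27 at 6.9%, Cd79b at 7% and Cd72 at 7.1%. It was highest for Cd4 at 217%, then Cd14 at 103%, Cd6 at 59% and Cd52 at 37.8%. Counting error alone, from the mean UMI count, came to 3.8% for Cd27, 8.3% for Cd79b, 14.9% for Cd72, 18.3% for Cd4, 75.6% for Cd14, 11.4% for Cd6 and 7% for Cd52. The spread of Cd79b and Cd72 was thus no larger than counting error, while Cd48 at 28.1% stood at 5.11 times its counting error of 5.5%. Among WT libraries the variation of Cd6 was 66.5% with and 20.8% without replicate 1, and that of Cd52 was 41.6% with and 9% without it.

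**Figure D4:**
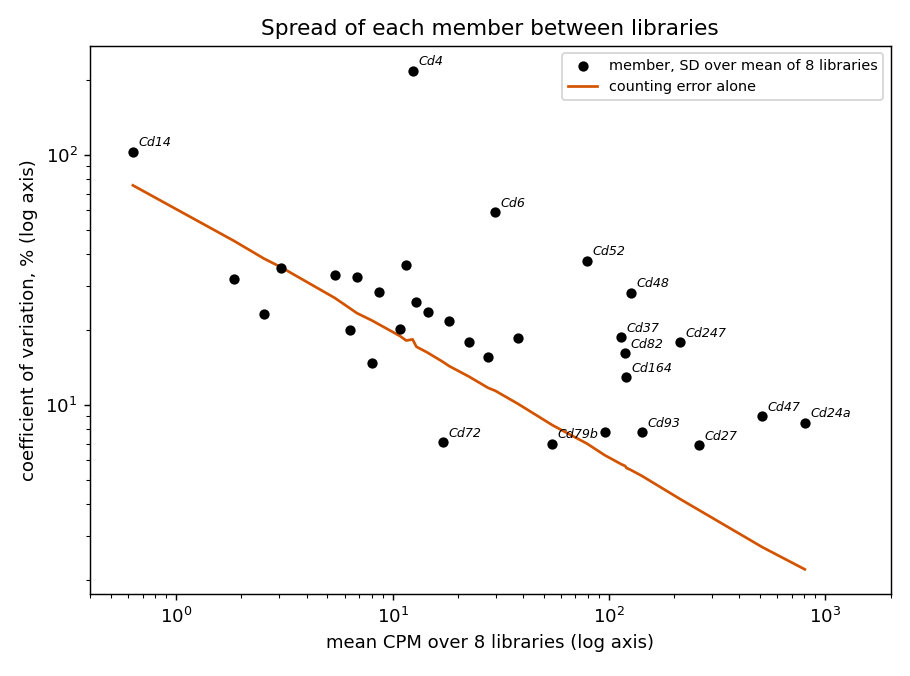
Coefficient of variation in percent over the 8 libraries (Il25 KO and WT together) against mean CPM, both on log axes, with a point for each of the 32 genes and a line for counting error alone. Cd4, Cd6, Cd52 and Cd48 lie far above the line, and Cd79b and Cd72 lie below it.

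No CD-numbered gene passed the test of KO against WT. Of 27 tested, 0 passed at an edgeR adjusted p under 0.05, where 0.211% of all 9016 tested genes did (0.177% higher and 0.0333% lower in KO). The lowest adjusted p was 0.387, for Cd164. At an unadjusted p under 0.05 there were 3, Cd164, Cd52 and Cd6, where 10.8% of all genes lay there. DESeq2 called 0 members as well, with 2 at an unadjusted p under 0.05, where it called 0.433% of all genes and 7.91% lay under that unadjusted p. Limma-voom also called 0 members, with 2 at an unadjusted p under 0.05, against 0.222% and 11.1% of all genes. The authors' deposited table gave 0 of 32 at an adjusted p under 0.05, where it held 36 genes or 0.33% of those listed. In none of the 27 did the KO and WT libraries lie apart without overlap, which 5.22% of all tested genes did (2.92% with KO higher and 2.31% with KO lower). The log2 fold changes ran from -0.63 to 0.25, with 10 above and 17 below 0 and a median of -0.06, where the median of all genes was -0.002. Their median size without sign was 0.13, and that of all genes 0.14. The 95% interval of the log2 fold change lay within a 2-fold change in either direction for 26 of the 27, all but Cd6, and within a 1.5-fold change for 16.

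**Figure D5:**
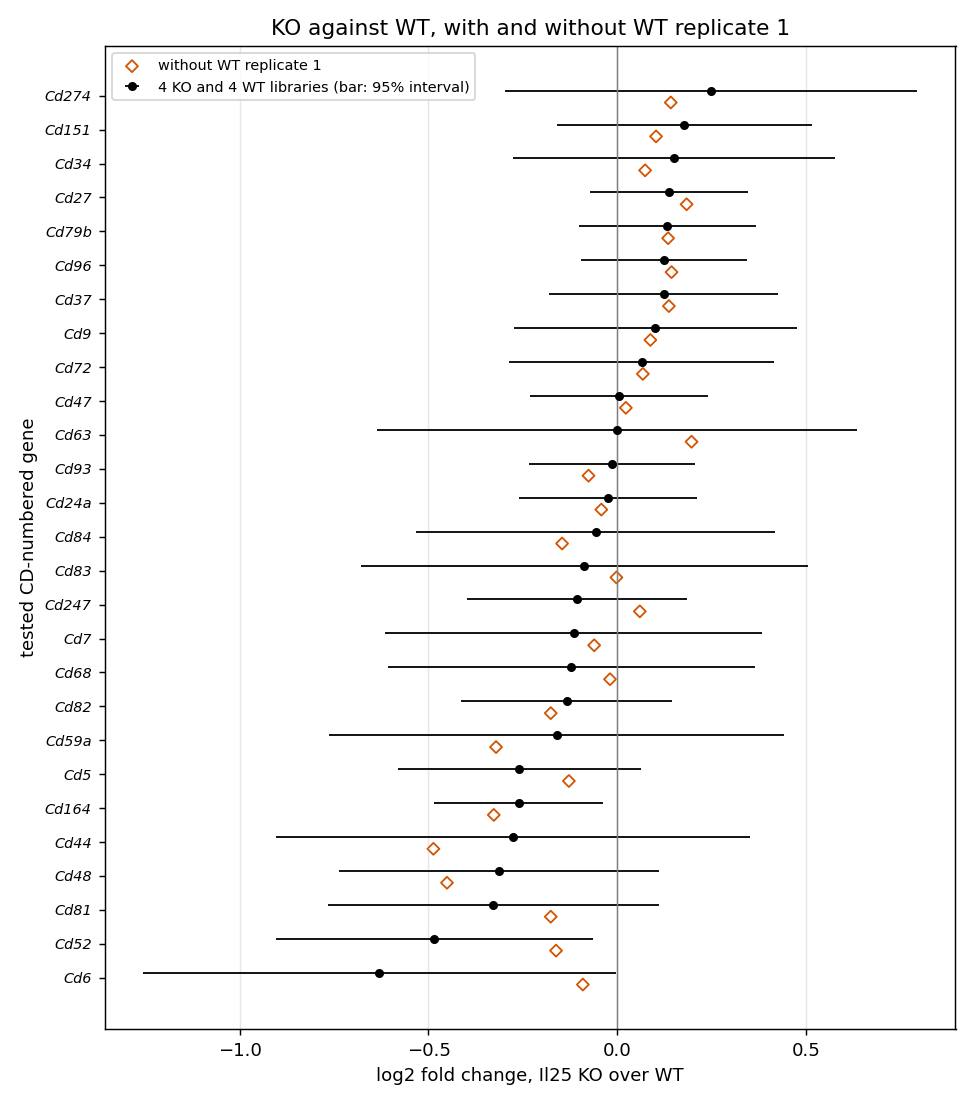
Log2 fold change of Il25 KO over WT for the 27 tested genes with its 95% interval (black), and the same without WT replicate 1 (orange diamonds). The estimates lie between -0.63 for Cd6 and 0.25 for Cd274, and the diamond of Cd6 lies at -0.09.

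Leaving out WT replicate 1 moved the members but called none. Of 27 tested in that fit 0 passed, where 0.283% of 9176 genes did, and 2 lay at an unadjusted p under 0.05, Cd164 and Cd48, where 11.9% of all genes did. The largest shifts were those of Cd6 by 0.54, Cd52 by 0.32, Cd44 by -0.21, Cd63 by 0.20, Cd247 by 0.17 and Cd59a by -0.16 on the log2 scale. Without it 2 members had KO and WT values that lay wholly apart, as had 11.1% of all genes: Cd27 was higher in KO (5.86% of all genes) and Cd164 lower (5.19%), neither past the test. Cd164 averaged 109.6 ± 3.96 CPM in KO against 137.5 ± 10.8 CPM in the 3 remaining WT libraries (SD), a log2 fold change of -0.33 ± 0.11 (SE) at an adjusted p in edgeR of 0.227. Cd27 averaged 272 ± 5.16 CPM in KO against 239.8 ± 9.08 CPM in the 3 WT libraries, at an adjusted p in edgeR of 0.516. Of the 32 members, WT replicate 1 was the highest of the 8 libraries in 7 (Cd4, Cd5, Cd6, Cd52, Cd68, Cd81 and Cd247) and the lowest in 4 (Cd44, Cd93, Cd151 and Cd274). Among the 27 tested members it was the highest in 6 and the lowest in 4, beside 15.2% and 13.8% of all tested genes. KO replicate 4 was also the highest in 6 of the 27, beside 10.5% of all tested genes, so the count does not single out WT replicate 1.

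CD molecules whose gene carries another symbol included 1 gene that passed. Of 59 analysed, 49 were tested, of which 0 rose and 1 fell, beside 0.177% and 0.0333% of all genes. They had a median log2 fold change of 0.015, and 4 had KO libraries wholly below WT libraries (2.31% of all genes). The gene that fell was Tnfrsf18, which encodes the costimulatory receptor GITR. It had 82.3, 88.3, 55.0 and 92.9 CPM in the KO libraries, against 142, 133, 130.4 and 141 CPM in the WT libraries, without overlap, and its log2 fold change was -0.79 ± 0.13 (SE; adjusted p in edgeR 0.0134). It missed the threshold without WT replicate 2 (-0.80, adjusted p in edgeR 0.0676) and without WT replicate 4 (-0.77, adjusted p in edgeR 0.0639). The next lowest p belonged to Pdcd1, Fas, Slamf6 and Bsg, none past the threshold. Their log2 fold changes were -0.55 ± 0.14, -0.84 ± 0.27, -0.34 ± 0.11 and -0.34 ± 0.12 (SE), at adjusted p in edgeR of 0.15, 0.236, 0.253 and 0.274. Pdcd1 encodes the inhibitory receptor PD-1, Fas a death receptor, Slamf6 a SLAM family receptor and Bsg basigin, a partner of lactate transporters.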

How the data were processed

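Sorted thymic ILC2 of 4 Il25 KO and 4 WT samples gave MARS-seq libraries, in which each mRNA is counted near its 3′ end by a unique molecular identifier (UMI), per the labels' protocols. As software and build, STAR 2.5.2b, HTSeq, cutadapt, bcl2fastq, DESeq2 and mm10 are listed per the submitters' processing notes, with no role. Neither the annotation nor the treatment of strand and of multiply matching reads is stated there, so genes that overlap others are uncertain. Exons of 10 members overlap another gene in GENCODE M21, among them Cd27, Cd247, Cd37 and Cd81.

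The deposited raw UMI counts per gene were the values tested. The normalized signal deposited by the authors equalled the count divided by a constant per library. The deposited log2 fold change runs WT over KO and was not printed. The deposited adjusted p-values were used only as a count.

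The main test used edgeR 4.0.16 (R 4.3.3): filterByExpr (minimum count 10, 9016 of 10913 genes kept), TMM scaling, a quasi-likelihood fit on the group over all 8 libraries, and Benjamini-Hochberg adjustment over all tested genes with a threshold of 0.05. CPM uses TMM-scaled sums over the tested genes, so that 1 UMI was worth 0.318 to 0.52 CPM. Standard errors come from the F statistic. Counting error is that of the mean UMI count. The fit was tested on 5 sets of simulated counts for 9016 genes. It recovered 46.8% of 1.5-fold and 84.4% of 2-fold changes, and 5.2% of its calls were false. A member with a change of such size could thus go uncalled. Alternatives covered normalization, filter, DESeq2 1.42.0, limma-voom (limma 3.58.1), a replicate block and leaving out each library. No pair of libraries agreed within sampling noise (chi-square per degree of freedom at least 2.93). The members, role lists and marker lists were chosen with earlier results of these data known. Every member may be named. Full values go to the 15 highest, the 10 with the lowest p and the 6 that moved most without WT replicate 1, and Cd4 was added after its values were seen. Some CD molecules are not reported here.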

Additional observations from a re-analysis of the deposited data

Results flagged for a closer look

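Samples far from the others of their group were sought in 90 groups of 4 values (each member, the summed markers of each cell type and the summed members, in KO and in WT), and 11 stood out, where chance gives about 1 in 20. All lay in WT. Cd4 at 78.7 CPM, Cd52 at 150.1 CPM and Cd81 at 21.5 CPM were far above the other WT libraries, each in WT replicate 1. Cd47 at 442.6 CPM lay below the other WT libraries, which held 530.4 to 534.5 CPM, in replicate 3. Cd83 at 3.56 CPM lay below the other 3, in replicate 2, and Cd14 at 2.04 CPM rested on 6 UMIs in replicate 3. Among the summed markers of other cells, macrophages and monocytes at 153 CPM and red cells at 2.58 CPM were high in WT replicate 1, and natural killer cells and ILC1 at 714 CPM were low there. The sums of ILC3 markers at 260.8 CPM, in replicate 4, and of thymic epithelium markers at 23.1 CPM, in replicate 3, lay below those of the other WT libraries.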

How the results depend on the processing

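The count of 0 CD-numbered genes called held under the 16 alternatives run, and the median log2 fold change of the members, -0.057, ran from -0.12 to -0.019 over them. The number of all genes called was 19, against 39 by DESeq2 and 60 with a replicate block, and 1 to 39 when single libraries were left out (1 without WT replicate 2, 4 without WT replicate 4, 39 without KO replicate 2). With the replicate block 0 members were called. The replicate numbers were not taken to pair the samples, since deviations of same-numbered libraries correlated at -0.006 to 0.138 and KO replicate 2 correlated best with WT replicate 3 (0.242). Some log2 fold changes near 0 changed sign. Cd63 was at 0.00 with upper quartile factors, 0.027 with library size alone, 0.002 without a filter, 0.004 by DESeq2 and 0.009 with the replicate block. Cd24a and Cd93 were at 0.003 and 0.013 with library size alone, and Cd83 at 0.014 by limma-voom. When single libraries were left out, the values ran -0.321 to 0.195 for Cd59a, -0.25 to 0.213 for Cd63, -0.186 to 0.072 for Cd84, -0.073 to 0.203 for Cd9, -0.321 to 0.059 for Cd7, -0.078 to 0.053 for Cd24a, -0.076 to 0.044 for Cd93, -0.006 to 0.232 for Cd37, -0.065 to 0.062 for Cd47, -0.174 to 0.06 for Cd247 and -0.335 to 0.03 for Cd83. Tnfrsf18, whose alternatives were chosen after seeing the data, ran from -0.876 to -0.639 when single libraries were left out and missed the threshold without WT replicate 2 or 4. The top 10 by level kept all 10 genes in every alternative but the WT libraries alone, where 9 remained. Without WT replicate 1 neither Cd6 nor Cd52 stayed at an unadjusted p under 0.05, and the cause was not tested. Members below 10 CPM rest on few UMIs, so differences under their intervals were not detectable.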

Other observations

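Among the 59 analysed CD molecules under another symbol, the surface profile was led by Thy1 (CD90), a GPI-anchored molecule of T cells and innate lymphoid cells, at 1277 CPM over the 8 libraries, above Cd24a. Selplg, the P-selectin ligand, followed at 652 CPM, and Bst2 (tetherin) stood at 451 CPM. Also high were Ifngr1, a chain of the interferon gamma receptor, at 387 CPM and Il2rg, the common gamma chain, at 384 CPM. Ptprc (CD45), which marks white blood cells, stood at 241 CPM and Il2ra (CD25) at 143 CPM. Thy1 averaged 1206 ± 55.0 CPM in KO against 1347 ± 119 CPM in WT (SD, n = 4 each). It did not pass, with a log2 fold change of -0.16 ± 0.11 (SE; adjusted p in edgeR 0.622). These genes were named by level, after their values were seen.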
